A study of Mus musculus with 15 samples.

Results

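The albumin gene family (Alb, Afp, Afm and Gc), the oncofetal genes Gpc3, Igf2bp1, Igf2bp3 and Lin28b, and the repressors Zhx2 and Zbtb20 were followed through the livers of wildtype mice and of Stab1-/- mice, which lack the scavenger receptor Clever-1 in all cells. The 10 genes were chosen by symbol and function, and the 2-week genotype difference of Afp and its change between ages were already known when they were chosen. Each symbol has 1 row among the 19464 rows of the deposited table. The choice of Afp therefore rested on measured values, and its difference between the genotypes at 2 weeks is given as a description with no test. The libraries are whole-liver total RNA of 2-week-old Stab1-/- mice (n = 4), 2-week-old wildtype mice (n = 4), Stab1-/- fetuses at E17.5 (n = 3) and wildtype fetuses at E17.5 (n = 4). Both genotypes are on a C57BL/6N;129SvJ background, and it is not stated whether the wildtype animals were littermates or whether each library is 1 animal. The p-values therefore measure the spread between these libraries. The labels name no treatment.

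Albumin, alpha-fetoprotein, afamin and the vitamin D-binding protein encoded by Gc are secreted by hepatocytes and carry fatty acids, hormones and vitamins in plasma. In mouse liver Afp is expressed at a high level before birth and is shut down in the first weeks after it, and Zhx2 and Zbtb20 are known repressors that take part in this shutdown, together with that of Gpc3 and H19 in the case of Zhx2. Lin28b blocks the maturation of let-7 microRNAs, and Igf2bp1 and Igf2bp3 bind and stabilise mRNAs in fetal tissues and tumours. Lin28b and Igf2bp1 are themselves textbook targets of let-7.

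Each library had between 9659 and 10964 reads on genes when given in units of 1000. The level of a gene is given as RPKM, its reads divided by the length of its gene model and by the total of counted reads. Fold changes are log2 values from edgeR on the deposited counts after TMM scaling, with Benjamini-Hochberg adjustment over all genes tested, and a gene is called at an adjusted p-value under 0.05. The targeted gene followed the labels: Stab1 had 68 to 119 reads in the Stab1-/- and 579 to 941 reads in the wildtype libraries at 2 weeks, and 301 to 443 against 1244 to 1868 reads at E17.5. Of the 7 hepatocyte markers (Ttr, Apoa1, Apoh, Hnf4a, Serpina1a, Tat and Cps1) none was at 0 in all libraries. All 7 had enough reads to be tested between genotypes at each age. Wildtype replicate 4 at 2 weeks stood apart from the other 3 libraries of its group in Afp, so that Afp, Alb, Afm and Gpc3 at 2 weeks are also given without it. Of the other members none was called with or without it. At 2 weeks 340 of 12716 genes tested were called (119 higher and 221 lower in Stab1-/- livers), or 137 higher and 118 lower when scaled by library totals alone. At E17.5 49 of 13388 genes were called, 26 higher and 23 lower with TMM and 22 higher and 32 lower with library totals.

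Afp carried the widest difference between genotypes at 2 weeks among the 10 genes. The Stab1-/- libraries had 29.0, 28.5, 31.7 and 19.5 RPKM of Afp and the wildtype libraries 134, 141, 137 and 35.8 RPKM. Each Stab1-/- value lay below each wildtype value, but wildtype replicate 4 was much closer to the Stab1-/- livers than to the other 3 wildtype livers. In reads, these are 597, 628, 638 and 396 against 2930, 2912, 3043 and 796, well above the level at which counting error matters. The group means were 27.2 ± 5.30 RPKM in Stab1-/- against 112 ± 50.9 RPKM in wildtype livers (SD, n = 4 each), so that the Stab1-/- mean was 24.2% of the wildtype mean. Against wildtype replicates 1 to 3 alone, which lay at 137 ± 3.29 RPKM (SD, n = 3), it was 19.8%. On the log2 scale the difference was -2.13 with a standard error of 0.33 over all 8 libraries, and -2.42 with a standard error of 0.13 without wildtype replicate 4. Reads covered at least 95.5% of the Afp gene model in every 2-week library, so its reads lay along the whole transcript.

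At E17.5 the same gene was second only to Alb among the 10. Afp was 19550, 19010 and 23180 RPKM in the Stab1-/- and 18340, 18350, 17620 and 19520 RPKM in the wildtype libraries. The genotypes overlapped, the means being 20580 ± 2271 RPKM (SD, n = 3) and 18460 ± 788 RPKM (SD, n = 4), and the log2 fold change was 0.22 (standard error 0.11, adjusted p-value 0.433, edgeR). From E17.5 to 2 weeks the mean Afp level was 165 times lower in wildtype and 758 times lower in Stab1-/- livers. The difference between the genotype effects at the 2 ages was 2.32 on the log2 scale with a standard error of 0.41, and 2.61 with a standard error of 0.18 without wildtype replicate 4; it is given with no test.

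**Figure D1:**
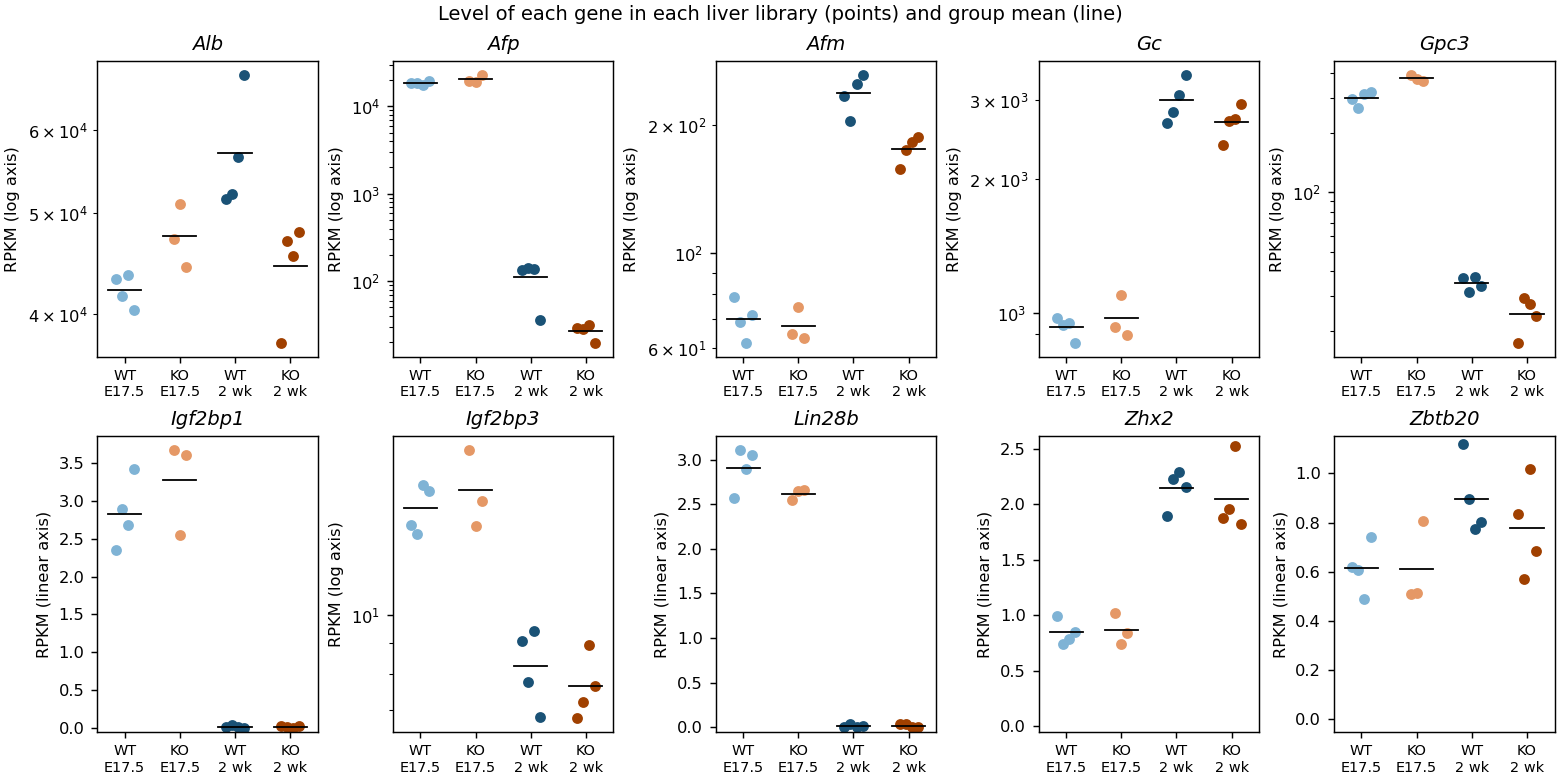
RPKM of the 10 genes in each of the 15 libraries (points) with the group mean (line), on a log axis for 6 genes and on a linear axis for Igf2bp1, Lin28b, Zhx2 and Zbtb20. Afp falls from at least 17620 RPKM to between 19.5 and 141 RPKM, and wildtype replicate 4 at 2 weeks (35.8 RPKM) sits beside the Stab1-/- livers.

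The neighbours of Afp did not share the size of this difference. Alb, Afp and Afm lie head to tail on chromosome 5 in the GENCODE annotation of GRCm38, with 14.1 kb between Alb and Afp and 10 kb between Afp and Afm, and Gc lies 1003 kb from Alb. Albumin itself was the most abundant of the 10 in every group. The Stab1-/- libraries at 2 weeks had 37470, 46980, 45390 and 47920 RPKM of Alb and the wildtype libraries 51570, 52060, 56520 and 67860 RPKM. All Stab1-/- values were below all wildtype values, and wildtype replicate 4, the lowest of its group in Afp, was the highest in Alb. The log2 fold change was -0.45 (standard error 0.18) and did not pass the test (adjusted p-value 0.162, edgeR). It was -0.34 without wildtype replicate 4 (adjusted p-value 0.336), and over the 18 alternatives the adjusted p-value ranged from 0.0402 with DESeq2, which called it, to 0.652. Alb took 7.66 to 9.79% of all counted reads in the Stab1-/- and 10.5 to 13.9% in the wildtype libraries at this age, and the family of 4 took 8.12 to 10.4% and 11.1 to 14.5%.

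Afamin, which binds vitamin E in plasma, was the only one of the 7 tested members to pass the test at 2 weeks. Afm was 158, 174, 182 and 188 RPKM in Stab1-/- against 234, 204, 250 and 263 RPKM in wildtype livers, without overlap. It fell by 0.53 on the log2 scale (standard error 0.12, adjusted p-value 0.0456, edgeR with Benjamini-Hochberg). The call was narrow. It was kept without wildtype replicate 2 (adjusted p-value 0.0269) and lost when any other 2-week library was left out, with adjusted p-values from 0.0585 without wildtype replicate 1 to 0.132 without Stab1-/- replicate 1 and 0.0913 without wildtype replicate 4. Over its 18 alternatives, of which 7 made the call, the adjusted p-value ranged from 0.00269 to 0.132 and the log2 fold change from -0.63 to -0.43. Gc, the carrier of vitamin D metabolites, had 2374, 2688, 2720 and 2936 RPKM in Stab1-/- against 2665, 2814, 3079 and 3421 RPKM in wildtype livers. These ranges overlapped and the log2 fold change was -0.25 (standard error 0.14, adjusted p-value 0.303, edgeR).

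At E17.5 none of the 4 family members was called. Alb was 47190, 50990 and 44390 RPKM in Stab1-/- against 43220, 41550, 43600 and 40320 RPKM in wildtype fetal livers, again without overlap but in the other direction, with a log2 fold change of 0.23 (standard error 0.12, adjusted p-value 0.427, edgeR). Afm was 63.1 to 74.6 RPKM against 61.5 to 78.9 RPKM and Gc 894 to 1098 RPKM against 858 to 978 RPKM, both overlapping. The difference of the Alb effect between the ages was 0.65 on the log2 scale (standard error 0.20) and did not pass the test (adjusted p-value 0.0862), nor did that of Afm (0.50, adjusted p-value 0.115) or Gc (0.34, adjusted p-value 0.281, edgeR).

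To show what the 4 genes have in common in sequence, their promoters are printed from 250 bases before to 50 bases after the start given by RefSeq on GRCm38.p6, 5′ to 3′. Capitals mark the letters GTTAAT, the core of a binding site for the hepatocyte factor HNF1, together with TATAAA, which lies just before many transcription starts, and CCAAT, each on either strand. Read from the other strand, GTTAAT appears as ATTAAC, while CCAAT then appears as ATTGG.
Afp (chr5:90490464-90490763, plus strand): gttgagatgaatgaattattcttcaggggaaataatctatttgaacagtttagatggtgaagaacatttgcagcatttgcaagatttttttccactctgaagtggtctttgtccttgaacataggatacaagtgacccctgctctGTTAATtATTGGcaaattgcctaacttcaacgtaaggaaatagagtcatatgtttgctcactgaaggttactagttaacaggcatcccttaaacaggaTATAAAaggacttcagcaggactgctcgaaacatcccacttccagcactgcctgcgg
Alb (chr5:90460620-90460919, plus strand): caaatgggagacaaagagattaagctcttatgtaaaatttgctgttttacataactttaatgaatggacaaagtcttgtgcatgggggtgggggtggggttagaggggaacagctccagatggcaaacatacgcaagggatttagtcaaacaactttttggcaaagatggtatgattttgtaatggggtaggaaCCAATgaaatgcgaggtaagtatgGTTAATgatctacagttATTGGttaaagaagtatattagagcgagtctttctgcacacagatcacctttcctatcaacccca
Afm (chr5:90518699-90518998, plus strand): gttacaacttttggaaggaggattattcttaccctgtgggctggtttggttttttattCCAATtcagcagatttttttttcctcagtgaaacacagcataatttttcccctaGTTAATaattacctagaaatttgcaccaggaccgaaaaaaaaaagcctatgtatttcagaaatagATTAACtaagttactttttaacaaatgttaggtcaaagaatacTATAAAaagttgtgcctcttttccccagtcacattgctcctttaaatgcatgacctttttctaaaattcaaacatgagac
Gc (chr5:89457849-89458148, minus strand): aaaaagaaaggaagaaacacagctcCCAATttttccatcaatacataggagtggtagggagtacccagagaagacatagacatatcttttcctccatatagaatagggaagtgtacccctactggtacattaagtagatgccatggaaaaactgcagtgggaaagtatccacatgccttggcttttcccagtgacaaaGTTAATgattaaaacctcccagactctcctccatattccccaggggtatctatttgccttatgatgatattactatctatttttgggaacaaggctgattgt
GTTAAT was present in all 4, once in Afp, Alb and Gc and in both orientations in Afm, and 7.2% of 27025 mouse promoters of this length hold it. It was in none of the promoters of Gpc3, Zbtb20, Igf2bp3 and Lin28b. TATAAA was found in Afp and Afm (14.2% of promoters), CCAAT in all 8 promoters examined (37.9%), and the FOXA letters TGTTTAC in none of the 8 (3.55%). In Afp the CCAAT letters, read as ATTGG, begin 7 bases after the start of GTTAAT, and no motifs overlap. Promoter sequences were matched for 8 of the 10 genes, Zhx2 and Igf2bp1 being the others. A match of letters is no evidence of binding.

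Albumin, afamin and Gc moved together from liver to liver. When the group mean is taken off each log2 level, the deviations of Gc followed those of Alb over the 8 libraries at 2 weeks with a Pearson's r of 0.97 and a Spearman's rho of 0.98, and r was 0.96 without the 2 libraries farthest from the median. Afm followed Alb with r = 0.89 (rho 0.86, and r = 0.76 without the 2 farthest). At E17.5 r was 0.98 for Alb with Gc over 7 libraries (0.88 without the 2 farthest) and 0.70 for Alb with Afm, where it turned to -0.95 when Stab1-/- replicate 2 and wildtype replicate 1 were left out. These pairs were picked after the values had been seen and share their library, so they are a description with no p-value. Afp was different. Against Alb at 2 weeks r was -0.71 (rho -0.48), with p = 0.0747 and adjusted p = 0.398 by an exact permutation test within groups. It stayed between -0.90 and -0.39 when any single library was left out. Without both wildtype replicate 4 and Stab1-/- replicate 4 it was 0.57, so the negative value rests on these libraries together.

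**Figure D2:**
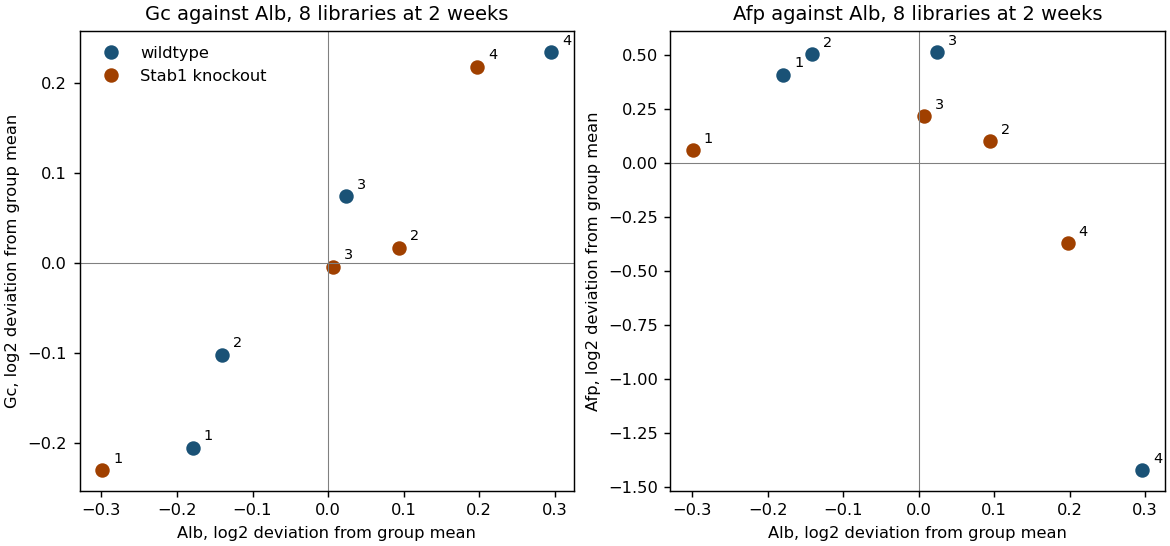
Deviation of Gc (left) and Afp (right) from the group mean on the log2 scale against that of Alb in the 8 libraries at 2 weeks, with replicate numbers. Gc rises with Alb along the whole range (r = 0.97). In Afp against Alb (r = -0.71) wildtype replicate 4 lies farthest out, at 0.30 for Alb and -1.42 for Afp. This r stays between -0.90 and -0.39 when any single library is left out.

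The ratio of the 2 genes within a library does not depend on scaling. At 2 weeks the Stab1-/- livers had 0.791, 0.619, 0.712 and 0.415 Afp reads per 1000 Alb reads and the wildtype livers 2.66, 2.76, 2.48 and 0.538. On this measure wildtype replicate 4 lay inside the Stab1-/- range and the genotypes overlapped. The means were 0.634 ± 0.162 and 2.11 ± 1.05 (SD, n = 4 each). At E17.5 there were 446 ± 78.8 Afp reads per 1000 Alb reads in Stab1-/- (SD, n = 3) and 448 ± 34.8 in wildtype livers (SD, n = 4), with ranges of 381 to 533 and 413 to 494.

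**Figure D3:**
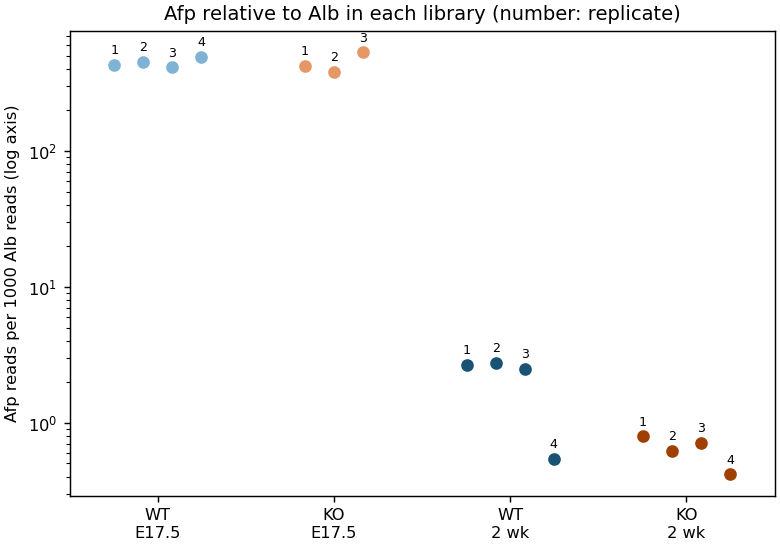
Afp reads per 1000 Alb reads in each of the 15 libraries on a log axis, numbered by replicate. The fetal livers lie between 381 and 533, wildtype replicates 1 to 3 at 2 weeks between 2.48 and 2.76, and wildtype replicate 4 (0.538) among the Stab1-/- livers (0.415 to 0.791).

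The other members were shifted less in the same library, and in both directions. Wildtype replicate 4 had 0.26 times the mean Afp level of wildtype replicates 1 to 3, 0.78 times their Igf2bp3, the lowest of its group, and 0.86 times their Zbtb20. It had 0.96 times their Gpc3, 1.01 times their Zhx2, 1.15 times their Afm, 1.20 times their Gc and 1.27 times their Alb. Igf2bp1 and Lin28b were under the floor. H19 and Igf2, imprinted fetal growth genes, were at 2418 and 323 RPKM there, the lowest of the wildtype livers, whose other values were 3247 to 4650 RPKM for H19 and 463 to 514 RPKM for Igf2. They stayed above the Stab1-/- livers, at 935 to 1059 RPKM for H19 and 42.7 to 69.1 RPKM for Igf2. Wildtype replicate 4 also had the lowest summed macrophage markers of its group (194 RPKM, against up to 288 RPKM). Its sums of stellate cell and fibroblast markers (157 RPKM, from 107 RPKM) and of hepatocyte markers (26590 RPKM, from 22310 RPKM) were the highest. Its erythroid (29.9 RPKM), leukocyte (25.7 RPKM) and cholangiocyte and progenitor (52.0 RPKM) sums were the lowest. Its endothelial and cell cycle sums lay inside the range of the group. The part of any of these in its Afp level was not tested.

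Glypican-3, a heparan sulphate proteoglycan of the fetal liver surface that returns in liver tumours, differed between genotypes in opposite directions at the 2 ages. At 2 weeks Gpc3 was 17.3, 29.3, 27.2 and 23.7 RPKM in Stab1-/- against 37.1, 31.4, 37.2 and 33.9 RPKM in wildtype livers, without overlap. At E17.5 it was 394, 374 and 364 RPKM in Stab1-/- against 297, 268, 316 and 321 RPKM in wildtype livers, again without overlap but with the Stab1-/- livers above. Neither difference passed the test within its age. The log2 fold change was -0.60 (standard error 0.15, adjusted p-value 0.0581) at 2 weeks, where 5 of 18 alternatives made the call and the adjusted p-value ranged from 0.0121 to 0.132, with 0.103 without wildtype replicate 4 and 0.0315 with the replicate number as a block. At E17.5 it was 0.39 (standard error 0.09, adjusted p-value 0.148), and only DESeq2 of 17 alternatives called it, the adjusted p-value ranging from 0.0011 to 0.391. The test of the difference between the ages was passed, with a value of 0.96 (standard error 0.20, adjusted p-value 0.0307, edgeR). This call was kept in 18 of 24 alternatives, with adjusted p-values from 0.000176 to 0.0739, wildtype replicate 4 at 2 weeks left out among them (0.0435). It was lost without wildtype replicate 3 at 2 weeks (0.0562), without Stab1-/- replicate 1 (0.0739) or 2 (0.0511) or wildtype replicate 1 (0.0635) or 2 (0.0729) at E17.5, and with limma without a filter (0.0542), while the difference stayed between 0.84 and 1.06 on the log2 scale.

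Of the 7 members with a test at 2 weeks, 1 was called, against 2.67% of all genes tested. The log2 fold change was below 0 in all 7, with a median of -0.30 against -0.01 over all genes. Afp, Alb, Afm and Gpc3 were lower in every Stab1-/- than in every wildtype liver at 2 weeks, 4 of the 10 genes, where 4.5% of all genes tested had this pattern, and no member was higher in every Stab1-/- liver, a pattern of 10.4% of genes. Afp is in this count through the values that led to its choice. At E17.5 none of the 10 was called by edgeR (0.366% of all genes), 1 had an unadjusted p-value under 0.05 (Gpc3), and DESeq2 called 1. Alb and Gpc3 were higher in every Stab1-/- fetal liver (2.91% of genes), and no member was lower in every one (9.3%). For the difference between the ages 1 of 7 tested members was called, against 1.81% of all genes, and the values of all 7 were above 0, with a median of 0.34 against -0.01.

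**Figure D4:**
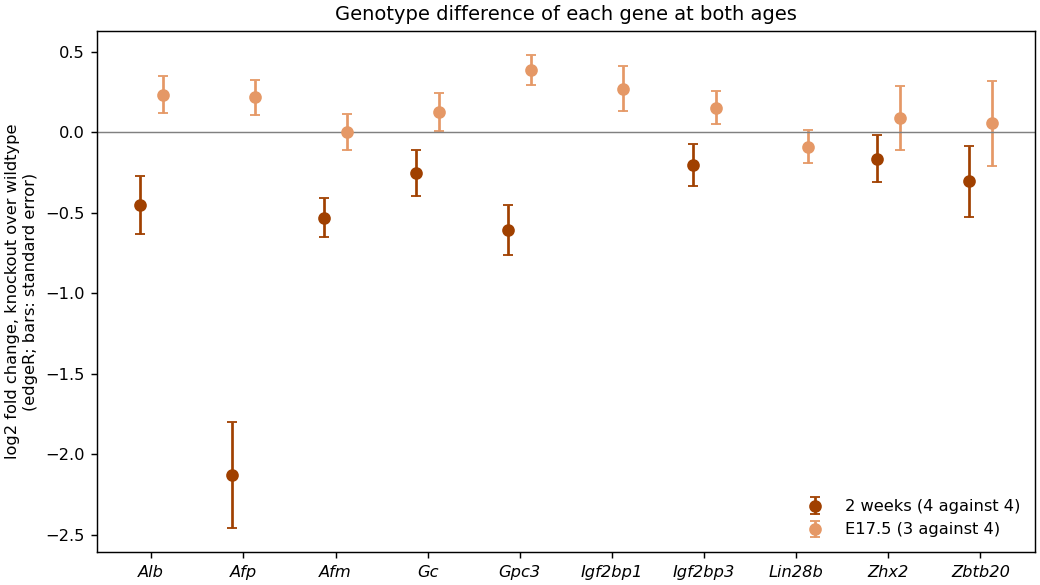
Log2 fold change of Stab1-/- over wildtype livers from edgeR with its standard error, at 2 weeks and at E17.5, for each gene. Igf2bp1 and Lin28b have no value at 2 weeks. All values at 2 weeks are below 0, from -2.13 for Afp to -0.16 for Zhx2, and those at E17.5 lie between -0.09 and 0.39.

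Both repressors were present at low levels, and neither differed between the genotypes beyond the spread of the libraries. Zhx2, a zinc finger and homeobox protein, was 1.87, 1.96, 2.52 and 1.82 RPKM in Stab1-/- against 1.89, 2.23, 2.29 and 2.16 RPKM in wildtype livers at 2 weeks. Its log2 fold change was -0.16 (standard error 0.15, adjusted p-value 0.533). At E17.5 it was 1.02, 0.74 and 0.838 RPKM against 0.994, 0.741, 0.789 and 0.851 RPKM. Zbtb20, a zinc finger protein with a BTB domain, was 0.835, 0.569, 1.02 and 0.683 RPKM in Stab1-/- against 1.12, 0.895, 0.776 and 0.802 RPKM in wildtype livers at 2 weeks, and its log2 fold change was -0.30 (standard error 0.22, adjusted p-value 0.430, edgeR). These values rest on 17 to 37 reads per library over the 2 ages for Zbtb20, and on 34 to 107 for Zhx2, so that small differences were not detectable. The gene model of Zbtb20 in the table has 3156 bases, of which at most 42.9% were covered in any library. Its longest 3′ UTR in the GENCODE annotation alone is 23858 bases long, more than this model can hold.

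In wildtype livers Zhx2 and Zbtb20 were higher after birth, the reverse of Afp. There Zhx2 rose by 1.70 on the log2 scale from E17.5 to 2 weeks (standard error 0.16, adjusted p-value 8.75e-07) and Zbtb20 by 0.90 (standard error 0.20, adjusted p-value 0.00165). In Stab1-/- livers Zhx2 rose by 1.46 (adjusted p-value 2.6e-05), whereas the value of Zbtb20 was 0.55 (adjusted p-value 0.107, edgeR) and was called in none of 15 alternatives. The difference between these changes of Zbtb20 was not called (0.33, adjusted p-value 0.6002). Hepatocyte markers rose between these ages as well. The median log2 fold change of the 7 was 1.66 in wildtype (7 called higher) and 1.28 in Stab1-/- livers (6 called higher). A rise of this size was therefore not particular to the repressors. Over the libraries of one age, the deviations of Zhx2 from its group means had a Pearson's r with those of Afp of 0.00 at 2 weeks (rho 0.21, exact permutation p = 0.993) and -0.05 at E17.5 (rho 0.14, exact permutation p = 0.924), each with an adjusted p of 0.993. For Zbtb20 r was 0.23 at 2 weeks (rho 0.10, exact permutation p = 0.516, adjusted p = 0.993) and 0.94 at E17.5 (rho 0.96), the latter with an exact permutation p of 0.00694, the smallest that these 7 libraries allow, and an adjusted p of 0.111 over the 16 relations with Afp that were computed. It was 0.93 without the 2 libraries farthest in Afp. Of the 16, none had an adjusted p under 0.05 and 1 had an unadjusted p under 0.05. A single relation at E17.5 could not fall below an adjusted p of 0.111 in this family.

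Lin28b, Igf2bp1 and Igf2bp3 fell from E17.5 to 2 weeks in both genotypes. To show their link to let-7, the mature let-7a is printed with its seed, bases 2 to 8, in capitals. Below it stands the first match of the seed in the longest 3′ UTR of each gene in GENCODE. The paired letters CTACCTC are in capitals, and all sequences run 5′ to 3′.
mmu-let-7a-5p: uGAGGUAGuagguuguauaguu
Lin28b, from base 36 of its 3′ UTR: cacccgggcgggaagtCTACCTCatgca
Igf2bp1, from base 1715 of its 3′ UTR: tgctgtgcgaagtaaaCTACCTCaaggt
Igf2bp3, from base 548 of its 3′ UTR: gtgcatttttactcaaCTACCTCaggta
The 3′ UTR of Lin28b and that of Igf2bp1 hold 4 such matches each and that of Igf2bp3 holds 1, while the other 7 genes hold none. Of these 7, Alb, Gc, Afp and Gpc3 have 3′ UTRs of only 169 to 441 bases, and longer ones hold a match more often. Among 21677 coding genes 8.75% hold at least 1 match. The share is 20.6% for a 3′ UTR of 3000 to 5000 bases, as in Lin28b, and 9.87% for 1000 to 2000 bases. The 3′ UTRs of Igf2bp1 (6337 bases) and Igf2bp3 (2119 bases) lie outside these ranges. Over all coding genes 12 genes (0.0554%) hold at least 4, among them Lin28b, Igf2bp1, Hmga2 and Trim71. A match is a description of the sequence, and let-7 itself was not measured in these libraries.

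Lin28b had 145, 150 and 153 reads in the Stab1-/- and 150, 176, 172 and 177 reads in the wildtype libraries at E17.5, which is 2.54 to 2.66 RPKM against 2.57 to 3.11 RPKM. At 2 weeks it had 0 to 2 reads in each of the 8 libraries. Igf2bp1 had 324, 224 and 321 reads in the Stab1-/- and 212, 253, 246 and 307 reads in the wildtype libraries at E17.5, and 0 to 3 at 2 weeks. The detection floor was set at 3 reads per library, so both genes were at or under this floor at 2 weeks and their genotypes could not be compared there. The floor and the intervals here cover counting error only. Reads summed over the libraries and divided by the totals were 219 times higher at E17.5 for Lin28b in wildtype livers (95% interval 74.5 to 1063, from 675 and 3 reads) and 141 times higher in Stab1-/- livers (54.8 to 521, from 448 and 4 reads). For Igf2bp1 the ratios were 198 (84.5 to 611) and 219 (93.6 to 677). At E17.5 neither gene differed beyond the spread, with log2 fold changes of -0.09 for Lin28b (standard error 0.10, adjusted p-value 0.732) and 0.27 for Igf2bp1 (standard error 0.14, adjusted p-value 0.445, edgeR).

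Igf2bp3 kept a clear level after birth. It was 6.78, 7.21, 8.94 and 7.64 RPKM in Stab1-/- against 9.06, 7.78, 9.40 and 6.81 RPKM in wildtype livers at 2 weeks, against 18.6, 14.0 and 15.3 RPKM and 14.0, 13.6, 16.3 and 15.9 RPKM at E17.5. The genotypes overlapped at both ages, with log2 fold changes of -0.20 (adjusted p-value 0.365) and 0.15 (adjusted p-value 0.551, edgeR). The mean level at E17.5 was 1.81 times that at 2 weeks in wildtype and 2.09 times in Stab1-/- livers. Its paralog Igf2bp2 was 1.27 ± 0.360 RPKM in 2-week-old wildtype livers and 6.79 ± 0.770 RPKM at E17.5 (SD, n = 4 each).

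Nearly all members changed between E17.5 and 2 weeks. In wildtype livers all 10 genes were called between the ages, where 71.9% of all genes were. Alb rose by 0.80, Afm by 2.12, Gc by 2.05, Zhx2 by 1.70 and Zbtb20 by 0.90 on the log2 scale, and Afp (-7.01), Gpc3 (-2.74), Igf2bp3 (-0.49), Igf2bp1 and Lin28b fell. In Stab1-/- livers 8 of the 10 were called, against 72.5% of genes: Afm rose by 1.60, Gc by 1.68 and Zhx2 by 1.46, and Afp (-9.35), Gpc3 (-3.72), Igf2bp3 (-0.84), Igf2bp1 and Lin28b fell. Gpc3 was 8.61 times lower in mean RPKM at 2 weeks than at E17.5 in wildtype and 15.4 times lower in Stab1-/- livers. Alb was not called there (0.13, standard error 0.19, adjusted p-value 0.555, edgeR) and in wildtype livers it was not called by limma on log2(RPKM + 0.1) (adjusted p-value 0.0558, or 0.411 without a filter). Scaled by library totals, the median of all genes lay at -0.38 in the wildtype comparison, at -0.24 in the Stab1-/- comparison and at -0.12 in the difference between the ages, against -0.01 in each with TMM. The value of Alb in Stab1-/- livers was then -0.10, which is 0.14 above that median, as with TMM. The ages share their libraries with the genotype comparisons, and age cannot be told apart from any batch in which the ages were handled.

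**Figure D5:**
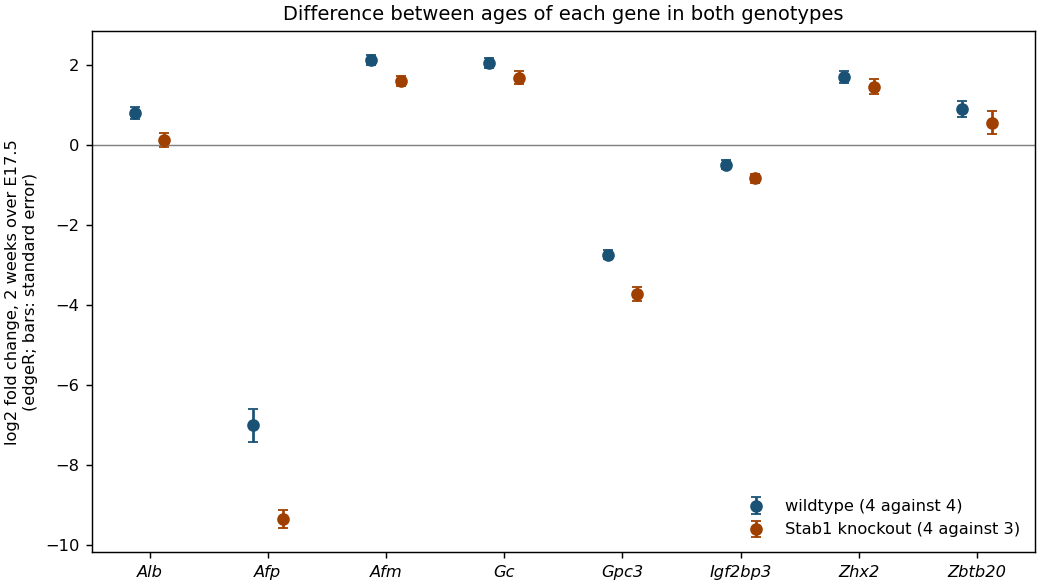
Log2 fold change of 2 weeks over E17.5 from edgeR with its standard error in wildtype and Stab1-/- livers, for the 8 genes with more than 3 reads in every library. Afp (-7.01 and -9.35) and Gpc3 (-2.74 and -3.72) fall further in Stab1-/- livers, and Afm, Gc and Zhx2 rise in both genotypes.

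The order of the levels changed with age accordingly. In both genotypes at E17.5 the order of mean RPKM was Alb, Afp, Gc, Gpc3, Afm and Igf2bp3, and Afp was 18460 against 42170 RPKM for Alb in wildtype livers. At 2 weeks it was Alb, Gc, Afm, Afp, Gpc3, Igf2bp3, Zhx2 and Zbtb20 in both genotypes. Afp (27.2 ± 5.30 RPKM) and Gpc3 (24.4 ± 5.26 RPKM) did not differ beyond their spread in the Stab1-/- livers at 2 weeks, while Afp (112 ± 50.9 RPKM) and Gpc3 (34.9 ± 2.80 RPKM) in wildtype livers came close only in replicate 4. Lin28b and Igf2bp1 at E17.5 (2.91 ± 0.241 and 2.83 ± 0.451 RPKM in wildtype livers) were within their spread of each other.

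In whole liver, fewer cells of a type and less RNA per cell cannot be told apart. At E17.5 the 7 erythroid markers summed to 1676 to 2586 RPKM over the 7 libraries, against 28.4 to 55.1 RPKM over the 8 libraries at 2 weeks, and the 7 hepatocyte markers to 9027 to 11380 RPKM against 20020 to 26590 RPKM. None of the 8 marker lists had a marker at 0 in all libraries. Between genotypes at 2 weeks, none of the 7 hepatocyte and none of the 6 tested erythroid markers was called, and the summed hepatocyte markers overlapped (20020 to 25640 RPKM in Stab1-/- against 22310 to 26590 RPKM in wildtype livers). The summed stellate cell and fibroblast markers were 75.6 to 96.2 RPKM in Stab1-/- against 107 to 157 RPKM in wildtype livers, with Col1a1 and Col3a1 called lower among 5. Summed cell cycle markers were 15.7 to 29.5 RPKM against 27.7 to 40.2 RPKM, with Top2a called lower among 5. Kdr was called lower among 5 endothelial markers. At E17.5 the 4 leukocyte markers summed to 93.1 to 109 RPKM in Stab1-/- against 122 to 131 RPKM in wildtype livers, and no marker was called. The part of any of these in the values of the 10 genes was not tested.

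Other genes of the same pathways were read from lists that were chosen with earlier results of these data known. Their calls are therefore no independent evidence. Of 6 genes known to respond to Zhx2 or Zbtb20, 4 were tested at 2 weeks and H19 alone was called, falling by 1.91 on the log2 scale (standard error 0.17, adjusted p-value 0.000153). Lpl (0.09), Mlxipl (0.00) and Cyp2a4 (-0.43) were not called, and Elovl3 and Mup20 did not pass the filter. At E17.5 none of the 4 tested was called, and the difference of the H19 effect between ages was 1.90 (adjusted p-value 0.000343, edgeR). Among 11 activators and other regulators of Afp and Alb, none was called at 2 weeks, with Foxa2 at -0.48 (adjusted p-value 0.087), Cebpa at 0.36 and Onecut1 at -0.91 (adjusted p-value 0.243). At E17.5 1 of these was called, the nuclear receptor gene Nr5a2, higher in Stab1-/- livers by 0.51 (standard error 0.09, adjusted p-value 0.0485, edgeR).

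Among 11 genes of the Lin28 and Igf2bp pathway, 9 were tested at 2 weeks and 2 were called, both lower in Stab1-/- livers. Igf2, whose mRNA the Igf2bp proteins are named for, fell by 3.12 on the log2 scale (standard error 0.18, adjusted p-value 5.15e-06), and Myc, an mRNA bound by Igf2bp1, fell by 0.75 (standard error 0.16, adjusted p-value 0.0341, edgeR). Igf2bp2 (-0.64, adjusted p-value 0.119) and Dis3l2 (-0.37, adjusted p-value 0.124) were not called. None of the 11 was called at E17.5. Between the ages the effects on Igf2 differed by 3.23 on the log2 scale (adjusted p-value 1.27e-06), and 10 of the 11 were called lower at 2 weeks than at E17.5 in each genotype, where 37.0% of all genes were in wildtype and 36.8% in Stab1-/- livers. The other glypicans had no call in either genotype comparison, Gpc4 being at -0.47, Gpc6 at -0.40 and Gpc1 at -0.61 at 2 weeks, with adjusted p-values of 0.114, 0.0943 and 0.215 (edgeR).

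Neither 4 neighbours of the albumin genes on chromosome 5 (Cox18, Ankrd17, Rassf6 and 5830473C10Rik) nor 9 other secreted liver proteins had a call in either genotype comparison. 5830473C10Rik is also named Albfm1 and is not counted in the family of 4 used here. From E17.5 to 2 weeks it rose by 3.07 on the log2 scale in wildtype and by 2.99 in Stab1-/- livers. In wildtype livers 3 of the 4 neighbours were called higher at 2 weeks and 1 lower. The median log2 fold change of these neighbours between genotypes was -0.12 at 2 weeks and 0.09 at E17.5. Among the secreted proteins it was -0.09 and 0.17, with Ttr at -0.43 (adjusted p-value 0.103), Trf at -0.36 (adjusted p-value 0.199) and Ahsg at -0.31 (adjusted p-value 0.236) at 2 weeks and Rbp4 at 0.13. Over all genes the median was -0.01 at 2 weeks and 0.00 at E17.5. Trf, the iron carrier transferrin, was 12300 ± 1448 RPKM in Stab1-/- against 14850 ± 1482 RPKM in wildtype ones at this age (SD, n = 4 each).

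The genes whose pattern was most like that of Afp from liver to liver were found among 13377 genes with a mean of at least 1 CPM (reads scaled to a common total), by Pearson's r of the deviations from the group means over the 15 libraries. Cd33 (0.95), Fam105a (0.94), Gm5483 (0.93), Cklf (0.91) and 2810454H06Rik (0.91) had the highest values. Much of this was set by wildtype replicate 4 at 2 weeks: without it r was 0.72 for Cd33, 0.80 for Fam105a and 0.81 for 2810454H06Rik, but 0.34 for Gm5483 and 0.33 for Cklf. The lowest values were those of Slc36a2 (-0.92), Ergic1 (-0.89), Ggcx (-0.87), Acly (-0.87) and Rac3 (-0.87), which were 0.11, -0.30, -0.18, -0.32 and 0.28 without that library. H19 and Igf2, which are not members, had an r of 0.80 and 0.74. Wildtype replicate 4 was the lowest of its group in both, and their values without it are not given here. No member was above 0.48 (Igf2bp1) or below -0.63 (Alb). The value of Igf2bp1 includes the 2-week libraries, in which it had only 0 to 3 reads. These values are a description with no p-value.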

How the data were processed

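Liver RNA of 15 libraries was sequenced at BGI from standard Illumina libraries. The authors deposited, for each gene and library, the count of uniquely mapped reads without normalization, the RPKM value, which recomputes from the counts with a largest difference of 5.09e-13 percent, and the percent coverage of each gene model. The deposited gene length is the base of the RPKM values. The aligner, counting program, genome build and strand setting are not given in the sources used here. No column was left unmapped. The 10 genes, the other gene lists and the tests were chosen with earlier results of these data known.

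The test was edgeR 4.0.16 under R 4.3.3 (TMM, filterByExpr at counts of 10 and a total of 15, quasi-likelihood test, two-sided, Benjamini-Hochberg), within each age, within each genotype, and for the difference between ages over all 15 libraries. Alternatives were DESeq2 1.42.0, limma 3.58.1 on log2(RPKM + 0.1) or log2(RPKM + 1) and without its RPKM minimum of 0.1, other scalings, no filter, all libraries in 1 fit, the replicate number as a block, each library left out, and GC-content offsets, added after seeing the data. Covariation used the log2 level after the group mean was removed, with exact permutation within groups. On simulated counts in which 200 genes had a log2 change of 2, edgeR recovered 200 with 7 false calls at 2 weeks, 200 with 14 at E17.5, and 198 with 13 for the difference between ages. The simulation gave every gene the same noise between libraries and changed only genes above a minimum mean count. It therefore says nothing of the power for smaller changes or for genes with few reads.

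All 10 members are named, at most 4 genes of each other list (those called, then the largest fold changes), every called marker, chosen after its value was seen, and the 5 genes at each end of the correlation with Afp. Gene positions and 3′ UTRs come from GENCODE vM21 on GRCm38, and promoters from RefSeq on GRCm38.p6. For each gene the longest 3′ UTR of its coding transcripts was used. Libraries were compared before averaging, and none repeated another.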

Additional observations from a re-analysis of the deposited data

Results flagged for a closer look

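Afp in wildtype replicate 4 at 2 weeks was 35.8 RPKM, and the nearest of the other 3 wildtype libraries was at 134 RPKM. The gap took 0.937 of the whole range of the group, above Dixon's 95% critical value for 4 samples. The same library had 0.538 Afp reads per 1000 Alb reads against 2.48 in the nearest, a gap of 0.874 of the range. In all, 29 groups of 4 libraries were examined in this way, and chance gives such a gap in about 1 in 20. Both gaps are the same library and the same gene, whose values were known when the genes were chosen, so they are a description and no independent evidence.

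The genotype difference of Gpc3 at E17.5 was above that at 2 weeks by 0.96 on the log2 scale (standard error 0.20, adjusted p-value 0.0307 by edgeR's quasi-likelihood test of the difference, Benjamini-Hochberg). All 3 Stab1-/- libraries at E17.5 were above and all 4 at 2 weeks below the wildtype libraries of their age.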

How the results depend on the processing

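Of 816 values of single genes under alternatives, 768 kept their direction and their side of the threshold, 19 lost and 9 gained a call, and 20 changed sign. All sign changes were in values without a call. Afm at E17.5 was -0.058 with library totals, -0.056 with limma on log2(RPKM + 0.1), filtered or not, -0.056 on log2(RPKM + 1) and -0.011 with all 15 libraries, and leaving out 1 library it ranged from -0.10 to 0.077. Lin28b at E17.5 was 0.020 with GC-content offsets. Zbtb20 at E17.5 was -0.0052 with library totals, -0.020 with limma on log2(RPKM + 0.1), filtered or not, -0.0055 on log2(RPKM + 1), and between -0.19 and 0.18 with 1 library left out. Zhx2 at E17.5 was then between -0.020 and 0.19. Alb between ages in Stab1-/- livers was -0.10 with library totals and -0.10 in the limma fits. The cause was not tested.

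Genes called at 2 weeks numbered 861 with DESeq2, 205 and 216 with limma at the pseudocounts of 0.1 and 1, 141 with limma without a filter and 703 with all 15 libraries, against 340. Members called were then 3, 0, 0, 0 and 2 of 7, with 0 under library totals and 2 without a filter in edgeR. At E17.5 DESeq2 called 230 genes and 1 member. For the difference between ages it called 1028 genes and 3 members, and limma without a filter 89 and 0. Leaving out 1 library gave 116 to 648 genes and 0 to 2 members at 2 weeks, 27 to 46 genes and 0 members at E17.5, and 30 to 684 genes and 0 to 1 members for the difference between ages. The highest counts at 2 weeks and for the difference came without wildtype replicate 2 at 2 weeks, and the lowest without Stab1-/- replicate 1 at 2 weeks, without wildtype replicate 2 at E17.5, and for the difference without wildtype replicate 2 at E17.5. Between the ages within a genotype it gave 9219 to 9622 genes and 10 members in wildtype, and 9233 to 9533 genes and 8 members in Stab1-/- livers. For covariation with Afp the count was 0 throughout, but at E17.5, and at 2 weeks once a library of that age was left out, a single relation could not pass (at E17.5 at best an adjusted p of 0.111), so this says nothing of stability.

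The genotypes share replicate numbers, which no source ties to animals or batches. Same-numbered libraries had correlations of their deviations of 0.214, 0.0333, 0.206 and 0.153 at 2 weeks and 0.00516, -0.0695 and -0.319 at E17.5. Thus 3 of the 4 pairs at 2 weeks and none at E17.5 were over 0.1. At 2 weeks all 4 were above 0, while pairs of unlike number ranged from -0.275 to 0.274. These values do not settle whether a factor is shared at 2 weeks. For want of a source the numbers were not taken as pairs. Under the replicate block 1181 genes and 2 members (Afm and Gpc3) were called at 2 weeks, 23 genes at E17.5 and 591 genes for the difference between ages. Not every library correlated best with its own number. Depth limits Zbtb20, Zhx2, Igf2bp1 and Lin28b.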

Other observations

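At 2 weeks the deviations of Zhx2 from its group means followed those of Afp with r = 0.99 over the 6 libraries that remain when wildtype replicate 4 and Stab1-/- replicate 4, the libraries farthest in Afp, are left out, against r = 0.00 over all 8. This r of 0.99 is the highest of the 16 such values with Afp over the 2 ages. It was picked after they were seen and is given with no test. Zhx2 rests on 78 to 107 reads in these 8 libraries.

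At 2 weeks the Stab1-/- library with the lowest Afp, replicate 4 (19.5 RPKM), also had the lowest Igf2 (42.7 RPKM) and the lowest H19 (935 RPKM). Among the wildtype livers replicate 4 was the lowest in all 3 genes as well. At E17.5 this order was not seen, since the wildtype library with the lowest Afp, replicate 3 (17620 RPKM), had 5482 RPKM of H19 and 1148 RPKM of Igf2.

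Stellate cell and fibroblast markers summed to 53.1 to 149 RPKM in the Stab1-/- and 79.0 to 101 RPKM in the wildtype fetal livers. Markers of cholangiocytes and progenitors summed to 35.3 to 106 RPKM against 25.1 to 57.1 RPKM. Both sums spread more widely in the Stab1-/- livers. Their medians there were 69.8 and 38.2 RPKM, so a single library set the top of each range. The authors' list of genes raised in Stab1-/- livers at E17.5 holds Epcam and Krt19 of these markers. It also holds genes described there as intestinal (Alpi and Fabp2), enteric (Actg2) or mucosal (Mptx1 and Mptx2), and the lactase gene Lct. These are examples picked by their descriptions and not a count. Whether these reads come from liver cells was not tested, nor was their part in the E17.5 values of Gpc3 and Alb.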
